A study of Mus musculus with 6 samples.

Results

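*Hsd17b1*, *Hsd17b3* and *Cyp19a1* were followed here by gene symbol, as 3 of the 26251 genes listed in single cell mRNA data of mouse gonads at E15.5. They are genes whose enzymes can carry the androstenedione of a fetal gonad on to testosterone or to estrogen. Of the 3 groups, control XY gonads were testes and control XX gonads were ovaries of *Amh*+/+; *Inhbb*+/+ embryos, and dKO XY gonads came from *Amh*-/-; *Inhbb*-/- embryos, called testes in the labels but described by the study as ovotestes at this age, and labelled as null for the genes of the Sertoli cell hormone AMH and of the activin B subunit. Each group had 2 libraries, and each library held the cells of the gonad pair of an embryo on a C57BL/6 background, frozen before capture on the 10x Genomics platform. The XX gonads carried no mutation, and dKO XX gonads were not analysed here. Levels below are in CPM, the unique molecular identifiers (UMIs) of a gene per 1000000 UMIs of all genes, after all cells of a type within a library were added up.

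Fetal Leydig cells, in the interstitium of the testis, make androstenedione from cholesterol, and in the fetal mouse testis the last step to testosterone is known to take place in Sertoli cells. HSD17B3 is the 17β-hydroxysteroid dehydrogenase that reduces androstenedione to testosterone. HSD17B1 reduces estrone to estradiol and, in rodents, androstenedione to testosterone as well. Aromatase, encoded by *Cyp19a1*, turns androstenedione and testosterone into estrone and estradiol, and is known for its high level in granulosa cells of growing follicles, which a fetal ovary does not yet hold.

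In these gonads both dehydrogenases were genes of the supporting cells of the testis, and their levels differed unequally between control and dKO XY gonads. *Hsd17b1* fell in dKO Sertoli-like cells by 3.76 on the log2 scale, whereas *Hsd17b3* fell by 0.83. In the feminized supporting cells of the same dKO gonads both were lower still, and in supporting cells of control XX gonads both were close to absent. *Cyp19a1* was hardly detected in any cell, with 59 UMIs in the 39343 cells of the cell types summed.

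The libraries held between 118475468 and 221675316 UMIs in the cells kept, with a median of 18415 to 27124 UMIs per cell. Any pair of libraries shared at most 25 cell barcodes. The dKO XY libraries stood apart before filtering, since 24.4% and 28.3% of their barcodes had at least 25% mitochondrial UMIs, against 2.22% to 9.35% in the other 4 libraries. Supporting cells of control XY gonads had 2039 and 1886 CPM of *Amh* and 161 and 184 CPM of *Inhbb*, and those of dKO XY gonads had 18.0 and 15.8 CPM and 41.9 and 50.8 CPM. Transcripts of both genes thus remained in dKO XY supporting cells, above the 1.37 and 1.42 CPM of *Amh* and the 37.4 and 24.9 CPM of *Inhbb* in control XX supporting cells, and the files do not show which part of a gene they came from. Supporting cells were split into subclusters with none of the 3 genes or their pathway genes among the genes used. Sertoli-like and granulosa-like subclusters were named from markers. The larger of the Sertoli-like subclusters passed all 11 Sertoli markers, but germ cell markers, of which all 6 passed, had the higher mean fold there, and at a higher resolution 152 cells split off as germ cells, of which 58 and 90 were from dKO XY. Feminized is here a class by rule, the dKO XY supporting cells that entered the subclusters and lay outside the Sertoli-like ones. Of 1271 and 954 dKO XY supporting cells, 678 and 425 were Sertoli-like and 489 and 465 feminized, and the rest, high in *Sycp3* or *Tcf21*, were left out of both classes. Of the 489 and 465 feminized cells, 421 and 441 lay in a subcluster that its markers did not name and that *Tnnt2*, *Spon1* and *Smoc2* led. Of all marker lists the interstitial one led there, with 6 markers passing, and 1 granulosa marker passed. At the higher resolution 342 and 348 dKO XY cells lay in a part led by the Leydig list, with *Cyp11a1* and *Insl3* among its leading genes. Another part, with 78 and 77 dKO XY cells, was led by the interstitial list. The 11 Sertoli markers, *Sox9*, *Dhh* and *Cst9* among them, summed to 10766 and 9404 CPM in control XY Sertoli-like cells, to 10828 and 8591 CPM in dKO XY Sertoli-like cells and to 1247 and 1094 CPM in dKO XY feminized cells. The 9 granulosa markers, *Foxl2* among them, summed to 30.5 and 28.5 CPM, 173 and 218 CPM and 1190 and 1049 CPM in the same classes, and to 3883 and 3879 CPM in control XX granulosa-like cells. Germ cell transcripts were present in Sertoli-like cells, where the 6 germ cell markers summed to 129 and 32.6 CPM in control XY and to 330 and 448 CPM in dKO XY. The 8 interstitial markers summed to 730 and 735 CPM in feminized cells against 246 to 276 CPM in dKO XY Sertoli-like cells. The part of these transcripts and of the mitochondrial share in the results below was not tested.

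*Hsd17b1* (ENSMUSG00000019301) lies on the plus strand of chromosome 11 of GRCm38, from 101078411 to 101080527, with 1 annotated transcript of 6 exons. *Hsd17b3* (ENSMUSG00000033122) lies on the minus strand of chromosome 13, from 64058266 to 64089230, with 5 annotated transcripts. *Cyp19a1* (ENSMUSG00000032274) lies on the minus strand of chromosome 9, from 54165937 to 54268110, with 5 annotated transcripts, of which 2 are protein coding. No other annotated gene overlaps any of the 3. RefSeq promoters on GRCm38.p6 were found for *Hsd17b3* and *Cyp19a1*. The stretch upstream of *Hsd17b3*, chr13:64089231-64089451 on the minus strand, is shown because *Hsd17b3* was the member that stayed high in dKO Sertoli-like cells. It was searched on both strands for AAGGTCA, a half-site bound by nuclear receptors such as NR5A1, and for its variant with a changed base near the end, AAGGTTA. The SOX motif searched was spelled AACAAT, and the motif searched for the GATA family was AGATAA.
Hsd17b3: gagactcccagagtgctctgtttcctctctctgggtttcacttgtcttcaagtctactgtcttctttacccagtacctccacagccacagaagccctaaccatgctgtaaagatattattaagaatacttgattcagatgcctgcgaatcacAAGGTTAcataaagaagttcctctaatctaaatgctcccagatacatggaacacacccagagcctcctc
The capitals mark the only match, the half-site variant at base 153 of the 221 shown, and 2.05% of the 32851 promoters of the table held this motif in a window of the same length. The half-site itself, the SOX motif and the GATA motif, held by 3.69%, 8.68% and 9.06% of these windows, did not occur. None of the 4 motifs occurred in the 250 bases upstream of the 3 annotated starts of *Cyp19a1*. A match is no evidence of binding.

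*Hsd17b1* was highest in the supporting cells of control XY gonads, at 299 and 245 CPM (272 ± 38.8, SD, n = 2). Leydig cells came next, at 13.3 and 17.5 CPM, and did not overlap with the supporting cells above or the other types below. Pericytes, coelomic epithelial, immune, endothelial and interstitial cells followed with means from 5.70 down to 3.30 CPM, an order without meaning because the ranges of neighbours overlapped. In dKO XY gonads the order was the same at its top, with supporting cells at 22.4 and 12.2 CPM and Leydig cells at 5.54 and 4.05 CPM, and other types had between 0.309 and 1.86 CPM. Leydig cells of dKO XY with fewer than 3 UMIs were at 2.65 and 2.10 CPM. In control XX gonads, supporting cells had 1.64 and 2.83 CPM, and endothelial, immune and coelomic epithelial cells had no UMI of *Hsd17b1* in either library.

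*Hsd17b3* was also highest in the supporting cells of control XY gonads, at 225 and 229 CPM (227 ± 2.39, SD, n = 2). Here no cell type came clearly second. Pericytes, Leydig, coelomic epithelial, immune, interstitial and endothelial cells had means between 4.37 and 2.71 CPM, and each overlapped with its neighbour. In dKO XY gonads supporting cells had 113 and 78.1 CPM of *Hsd17b3*, and all other types lay between 2.41 and 7.36 CPM, with coelomic epithelial cells above the rest. Control XX supporting cells had 0.412 and 0.506 CPM, and control XX pericytes, endothelial and immune cells had no UMI. Outside supporting cells, both genes were higher in control XY replicate 2 than in replicate 1 in each cell type measured in both, whereas the dKO XY libraries showed no such common order. In control XY replicate 2, interstitial cells had more *Hsd17b1* (4.63 against 1.97 CPM), *Hsd17b3* (4.10 against 1.49 CPM), *Amh* (31.7 against 10.4 CPM) and *Cst9* (17.4 against 7.26 CPM) than in replicate 1. Whether UMIs at such levels were free or cellular RNA was not tested.

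**Figure D1:**
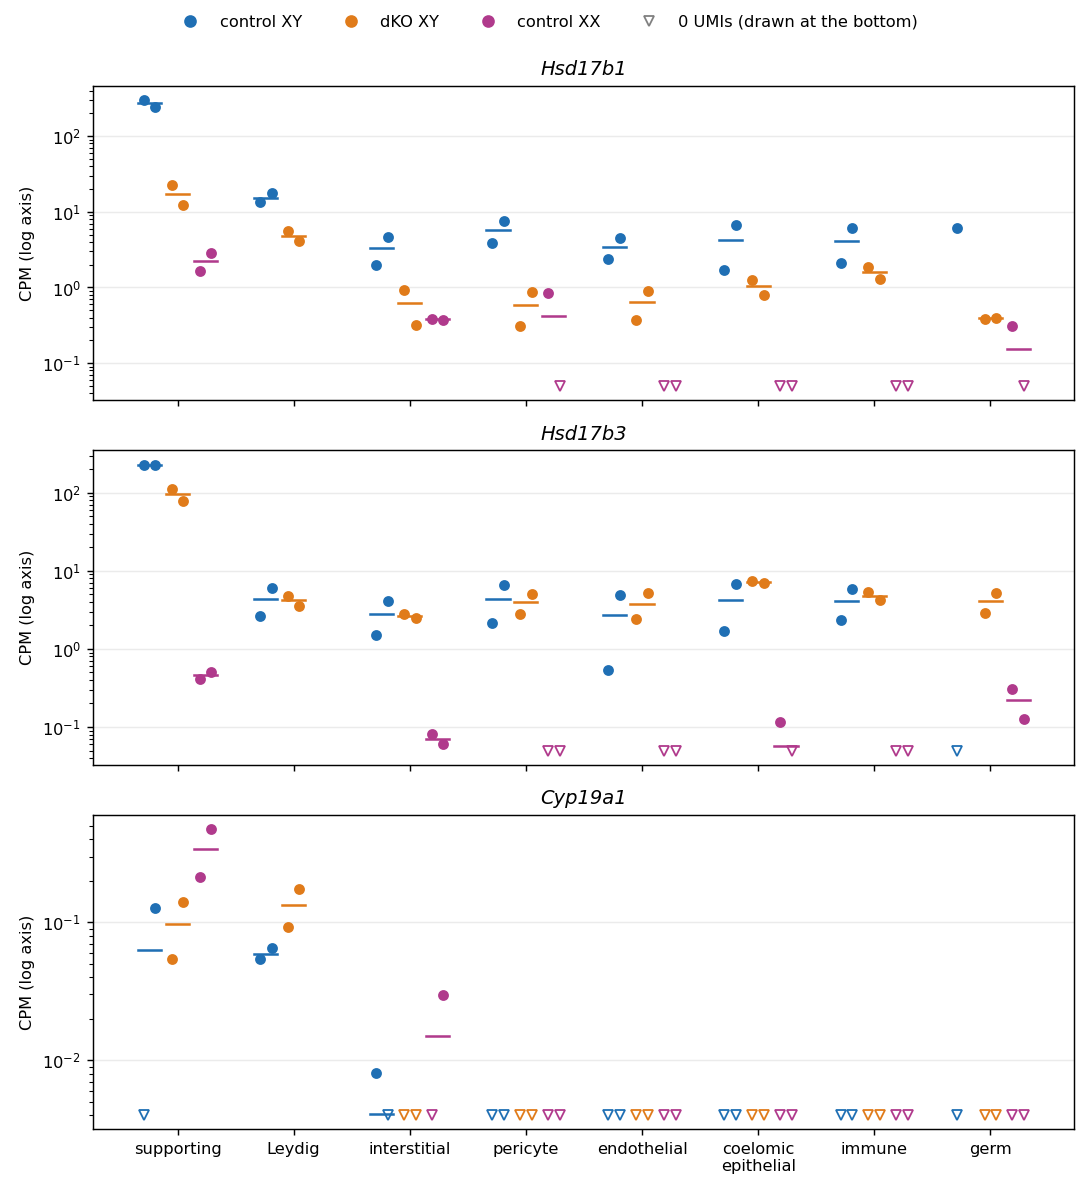
Levels of *Hsd17b1*, *Hsd17b3* and *Cyp19a1* in CPM (log axis) by cell type, with a point for each library, a line for the mean of a group and an open triangle where a library had no UMI. Supporting cells of control XY gonads had 245 to 299 CPM of *Hsd17b1* and 225 to 229 CPM of *Hsd17b3*, above every other cell type, and *Cyp19a1* stayed under 0.5 CPM in all of them. Types with fewer than 10 cells in a library are not drawn.

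All supporting cells of a library were compared first. Of the 15936 genes tested at an adjusted p under 0.05, 16.5% were called when dKO XY was set against control XY (9.85% higher, 6.70% lower). Control XX against control XY gave 48.8% (25.1% higher, 23.7% lower), and dKO XY against control XX gave 40.9% (21.3% higher, 19.6% lower). *Hsd17b1* and *Hsd17b3* were called each time. *Hsd17b1* was lower in dKO XY than in control XY by a log2 fold change of -3.97 (SE 0.30, adjusted p = 4.49e-05, edgeR's quasi-likelihood test with Benjamini-Hochberg adjustment). *Hsd17b3* was lower by -1.24 (SE 0.16, adjusted p = 0.000913, edgeR). Between control XX and control XY the log2 fold changes were -7.06 (SE 0.36) for *Hsd17b1* and -9.04 (SE 0.25) for *Hsd17b3*. The dKO XY cells therefore lay between both controls for either gene, at 3.10 (SE 0.32) above control XX for *Hsd17b1* and 7.80 (SE 0.25) above it for *Hsd17b3*. These 3 comparisons share libraries. Supporting cells of dKO XY gonads held both Sertoli-like and feminized cells, which were then compared as classes of their own.

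Sertoli-like cells of control XY gonads had 342 and 290.4 CPM of *Hsd17b1*, from 2064 and 3514 UMIs in 190 and 407 cells. Sertoli-like cells of dKO XY gonads had 30.7 and 17.6 CPM, from 651 and 308 UMIs in 678 and 425 cells. The groups did not overlap, and both dKO libraries were far below both control libraries. The log2 fold change was -3.76 (SE 0.28, adjusted p = 1.44e-05, edgeR), and 14.0% of the 14924 genes tested were called between these classes (8.42% higher, 5.56% lower). *Hsd17b3* was at 271 and 274 CPM in the control Sertoli-like cells and at 176 and 141 CPM in the dKO Sertoli-like cells, from 3744 and 2467 UMIs. These groups did not overlap either, but the gap was smaller, with a log2 fold change of -0.83 (SE 0.16, adjusted p = 0.0054, edgeR). The difference between the fold changes of the 2 genes was not tested. Over the 14 alternatives the log2 fold change of *Hsd17b1* ran from -4.19 to -3.44 and that of *Hsd17b3* from -0.98 to -0.71. These runs reuse the same libraries, so the ranges do not measure sampling spread and cannot test a difference between the genes.

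Both Sertoli-like subclusters gave the same order. In the larger, led by *Dppa5a* and *Dppa3*, known from germ cells, with *Cst9* and *Etd* also among its leading genes, control XY cells had 369 and 332 CPM of *Hsd17b1* and dKO XY cells had 34.6 and 19.6 CPM. In the cycling subcluster it was at 301 and 256 CPM against 24.5 and 14.2 CPM. *Hsd17b3* was at 284 and 278 CPM against 186 and 145 CPM in the former, and at 252 and 272 CPM against 162 and 135 CPM in the latter. In every one of these pairs the dKO libraries lay below the control libraries. Such a split alone is weak evidence, because with 2 libraries per group an exact two-sided test reaches p = 0.333 at best. Both subclusters came from the same libraries and together make up the Sertoli-like sums tested above. Their shared order is therefore no separate support. At the higher resolution, without the cells that split off as germ cells, the log2 fold changes between dKO and control Sertoli-like cells were -3.65 for *Hsd17b1* (adjusted p = 1.39e-05, edgeR) and -0.74 for *Hsd17b3* (adjusted p = 0.00775, edgeR).

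Feminized supporting cells of dKO XY gonads, whose granulosa markers summed to less than in control XX granulosa-like cells, had 10.5 and 7.26 CPM of *Hsd17b1* and 19.2 and 13.6 CPM of *Hsd17b3*. The unnamed subcluster held 123 of the 128 and all 114 of the 114 UMIs of *Hsd17b1*, and 231 of the 235 and 210 of the 214 UMIs of *Hsd17b3*. Both genes were thus lower than in dKO Sertoli-like cells in each library. The log2 fold change between these classes was -1.36 for *Hsd17b1* (SE 0.29, adjusted p = 0.00371, edgeR) and -3.18 for *Hsd17b3* (SE 0.18, adjusted p = 7.21e-07, edgeR), and 37.0% of genes were called (19.1% higher, 17.8% lower). Both classes came from the same 2 dKO libraries, and this test, without the library as block, treated their sums as independent. Within dKO replicates 1 and 2 taken alone the values were -1.55 and -1.28 for *Hsd17b1* and -3.20 and -3.37 for *Hsd17b3*. The sizes of the 2 steps thus differed between the genes, without a test of that difference. From control to dKO Sertoli-like cells *Hsd17b1* had the larger fold change, and from dKO Sertoli-like to feminized cells *Hsd17b3* had it. The classes were built from the same cells, though not from these genes, so the second step describes how the members differ between cells sorted by other genes.

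Compared with control XY Sertoli-like cells, feminized cells were lower by -5.12 for *Hsd17b1* (SE 0.31) and -4.01 for *Hsd17b3* (SE 0.18), with 41.0% of genes called (22% higher, 19.0% lower). In control XY gonads 11 and 25 supporting cells lay in the same unnamed subcluster as most feminized cells. They had 219 and 115 CPM of *Hsd17b1*, but 13.1 and 32.0 CPM of *Hsd17b3*, from 5 and 19 UMIs. A level of *Hsd17b3* near that of feminized cells was thus also found in these few control cells. Both genes were higher in feminized cells than in granulosa-like cells of the ovary. Control XX granulosa-like cells had 0.840 and 1.80 CPM of *Hsd17b1* and 0.332 and 0.497 CPM of *Hsd17b3*, and feminized cells were higher by 3.08 (SE 0.37, adjusted p = 0.00012, edgeR) and 5.55 (SE 0.26, adjusted p = 2.27e-07, edgeR), with 30.7% of genes called (17.5% higher, 13.3% lower). Without control XX replicate 1 the value for *Hsd17b1* was 2.44, and with supporting cells reclustered on components of their own it was 2.24. Cell types other than supporting and Leydig cells had 2.41 to 7.36 CPM of *Hsd17b3* in dKO XY, against at most 0.310 CPM in control XX. For *Hsd17b1* they had 0.309 to 1.86 CPM, against at most 0.839 CPM. The part of such UMIs in the differences between feminized and granulosa-like cells was not tested. The Sertoli markers were also higher in feminized than in granulosa-like cells, at 1247 and 1094 CPM against 430 and 508 CPM. The other supporting cells of control XX gonads had 3.24 and 6.30 CPM of *Hsd17b1*, above both libraries of granulosa-like cells, and 0.663 and 0.670 CPM of *Hsd17b3*. That difference within the ovary was not tested. It rests on 83 and 47 UMIs of *Hsd17b1*.

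**Figure D2:**
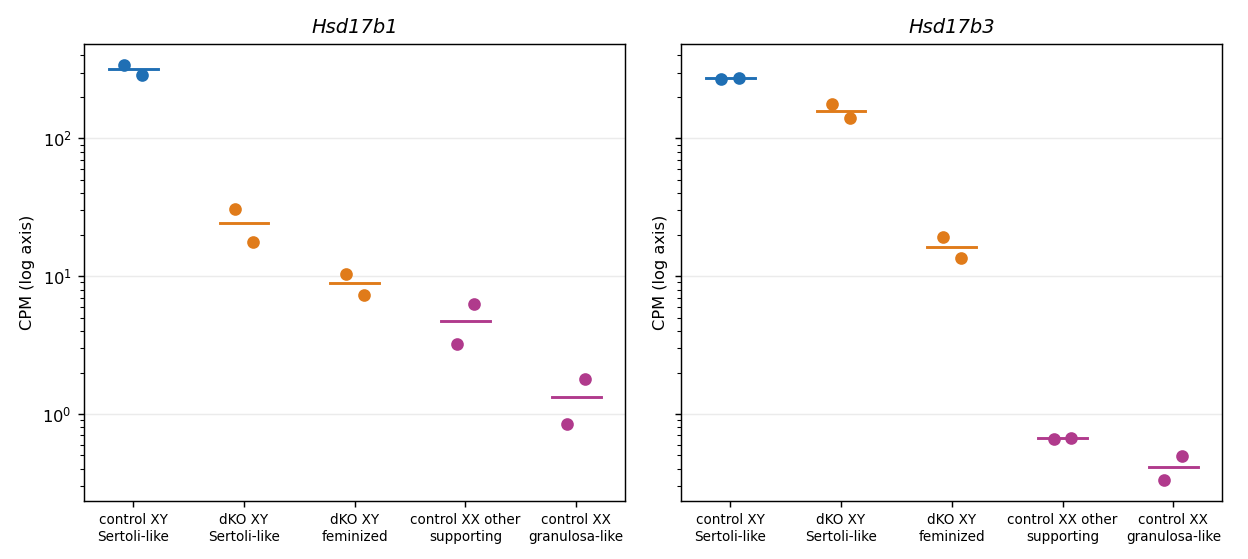
*Hsd17b1* and *Hsd17b3* in the classes of supporting cells, in CPM on a log axis, with a point for each library and a line for the mean of the 2 libraries. *Hsd17b1* dropped from 342 and 290.4 CPM in control XY to 30.7 and 17.6 CPM in dKO XY Sertoli-like cells, while *Hsd17b3* dropped mainly between dKO XY Sertoli-like cells (176 and 141 CPM) and feminized cells (19.2 and 13.6 CPM).

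The same UMIs were then read cell by cell, which is no separate support. To set cells of different depth beside each other, each cell was thinned to 5000 UMIs, which left out no cell. Among control XY Sertoli-like cells, 73.7% and 72.7% then had a UMI of *Hsd17b1* and 75.8% and 72.0% had a UMI of *Hsd17b3*, and 56.3% and 52.8% had both. Among dKO XY Sertoli-like cells, 14.6% and 9.18% had a UMI of *Hsd17b1*, but 56.0% and 51.1% had a UMI of *Hsd17b3*. Cells with *Hsd17b3* alone were the most frequent class among those with either gene in dKO Sertoli-like cells, at 46.0% and 44.5%, against 19.5% and 19.2% in control XY. If the genes were found independently, both would be expected in 55.8% and 52.4% of control XY Sertoli-like cells. For dKO XY Sertoli-like cells this was 8.18% and 4.69%, beside 10.0% and 6.59% found. Without thinning, 98.4% and 96.6% of control and 40.7% and 33.9% of dKO Sertoli-like cells had a UMI of *Hsd17b1*, at median depths of 26348 and 23235 UMIs against 25262.5 and 36948 UMIs. Of these, the cells of dKO replicate 2 had the highest median depth and the lowest share, and the part of depth was not tested.

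The median control XY Sertoli-like cell had 3.50 and 2.58 UMIs of *Hsd17b1* per 10000, and the lowest 10% of cells had at most 1.01 and 0.995. The median dKO Sertoli-like cell had none, and the highest 10% began at 1.20 and 0.637. For *Hsd17b3* the median was 2.54 and 2.57 per 10000 UMIs in control XY and 1.77 and 1.31 in dKO XY. Among feminized cells, 3.48% and 2.58% had a UMI of *Hsd17b1* after thinning and 7.98% and 6.02% had a UMI of *Hsd17b3*. For comparison, interstitial cells of the same dKO libraries had a UMI of *Hsd17b1* in 0.298% and 0.246% and of *Hsd17b3* in 1.72% and 1.16% of cells, at median depths of 19300 and 23065 UMIs against 22206 and 26315 UMIs in feminized cells. Among control XX granulosa-like cells the shares were 0.298% and 1.10% for *Hsd17b1* and 0.239% and 0.551% for *Hsd17b3*. All these shares carry counting error, and exact 95% intervals for *Hsd17b3* in dKO Sertoli-like cells were 52.2% to 59.8% and 46.2% to 55.9%.

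**Figure D3:**
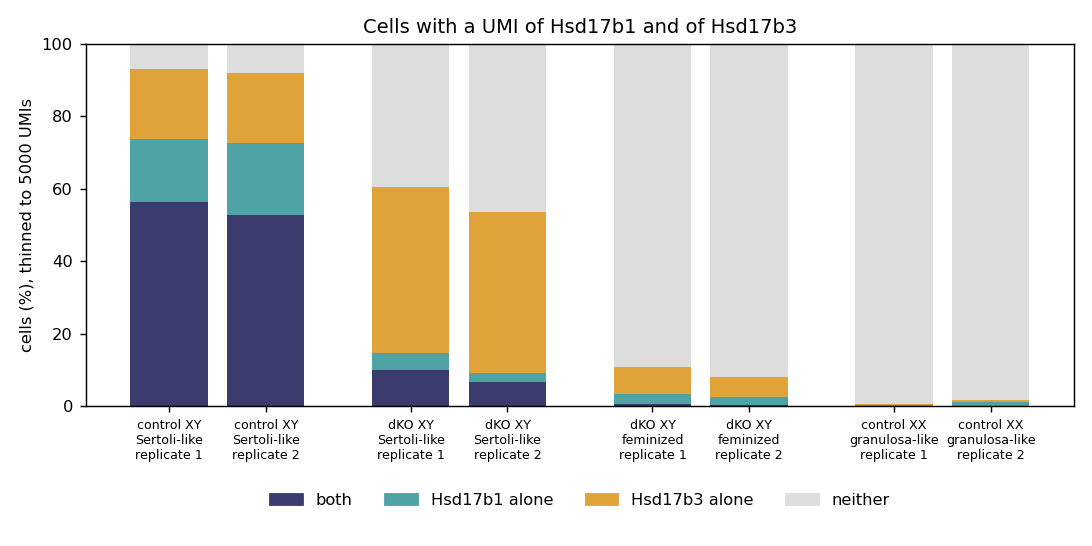
Percent of cells in each class and library with a UMI of both dehydrogenases, of *Hsd17b1* alone, of *Hsd17b3* alone or of neither, after each cell was thinned to 5000 UMIs. Both were found in 56.3% and 52.8% of control XY Sertoli-like cells and in 10.0% and 6.59% of dKO XY Sertoli-like cells, in which *Hsd17b3* alone was found in 46.0% and 44.5%.

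Because both genes were counted in the same cells, the share of *Hsd17b1* among the UMIs of the pair shows their balance within a library. It is no ratio of transcripts, since the 2 genes may be captured unequally, and its change between cells is what can be read. In control XY Sertoli-like cells *Hsd17b1* made up 55.8% (exact 95% interval 54.2% to 57.4%) and 51.4% (50.2% to 52.6%) of the UMIs of both. In dKO XY Sertoli-like cells it made up 14.8% (13.8% to 15.9%) and 11.1% (9.95% to 12.3%). Feminized cells of the same dKO libraries stood between, at 35.3% and 34.8%, apart from the Sertoli-like cells by more than the counting intervals in each library. The 11 and 25 control XY supporting cells outside the Sertoli-like subclusters had 94.4% (87.4% to 98.2%) and 78.2% (68.0% to 86.3%). They too lay above the Sertoli-like cells of their own libraries, from 89 and 87 UMIs of both genes. In control XX cells, with 60 and 37 UMIs of both genes in all granulosa-like cells, the share was 71.7% and 78.4%.

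In most other cell types the balance was closer to that of the Sertoli-like cells of their own group. Interstitial cells had 57.0% and 53.0% in control XY, and 24.7% and 11.3% in dKO XY, where 53 of the 98 UMIs of *Hsd17b1* in replicate 1 came from 6 cells. Germ cells of dKO XY gonads had 11.8% and 7.02%, and coelomic epithelial cells 14.8% and 10.3%. Leydig cells departed from this, with 83.6% (80.3% to 86.5%) and 74.5% (71.8% to 77.1%) in control XY and 53.6% (48.1% to 59.0%) and 53.3% (47.5% to 59.0%) in dKO XY. In each of the 4 XY libraries the Leydig cells had a higher share of *Hsd17b1* than the Sertoli-like cells, with intervals that did not overlap. These intervals cover counting error only.

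**Figure D4:**
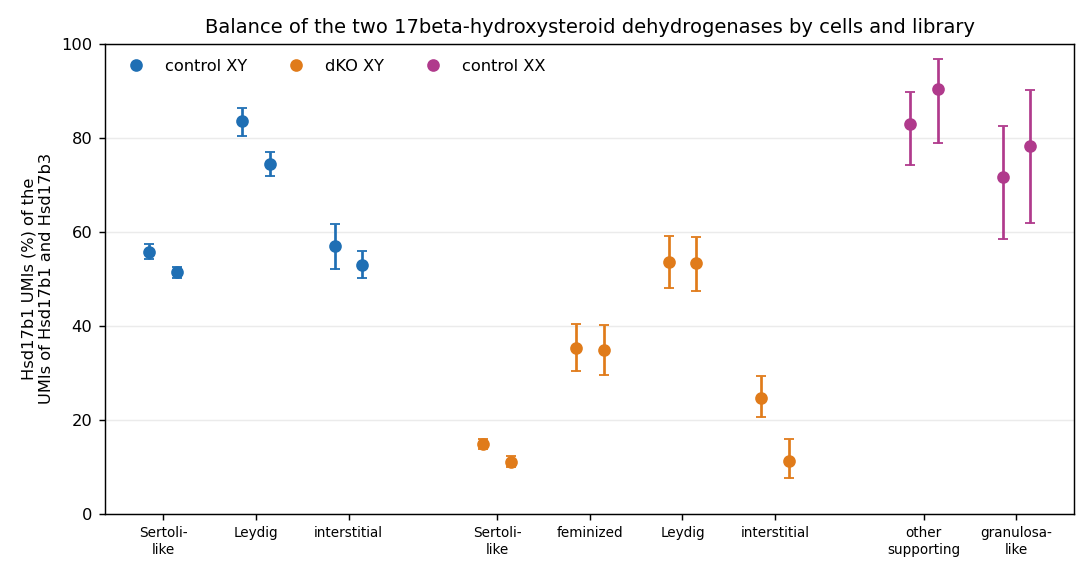
Share of *Hsd17b1* among the UMIs of *Hsd17b1* and *Hsd17b3* in percent, by class of cells and library, with exact 95% intervals. Sertoli-like cells stood at 55.8% and 51.4% in control XY and at 14.8% and 11.1% in dKO XY, and Leydig cells lay above the Sertoli-like cells of their own library in all 4 XY libraries.

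Leydig cells were then examined on their own. *Hsd17b1* was at 13.3 and 17.5 CPM in control XY Leydig cells, from 493 and 812 UMIs, and at 5.54 and 4.05 CPM in dKO XY Leydig cells, from 179 and 162 UMIs. The groups did not overlap, and the log2 fold change was -1.72 (SE 0.20, adjusted p = 0.00276, edgeR), where 8.88% of the 14644 genes tested were called (5.66% higher, 3.22% lower). A lower mean of *Hsd17b1* in dKO XY was not particular to Leydig cells. Pericytes had 5.70 against 0.594 CPM and immune cells 4.10 against 1.58 CPM, and coelomic epithelial, endothelial and interstitial cells were lower as well. The part of free RNA in the difference in Leydig cells was not tested. *Hsd17b3* was at 2.62 and 5.99 CPM against 4.80 and 3.55 CPM, and did not pass the test (log2 fold change -0.09, SE 0.35, adjusted p = 0.911, edgeR). Its direction was not stable, from -0.55 without control XY replicate 1 to 0.63 without control XY replicate 2, and it was called in none of the 10 alternatives. Sertoli-like cells were higher than Leydig cells of the same libraries by 3.15 for *Hsd17b1* (SE 0.48, adjusted p = 0.00174, edgeR) and by 5.40 for *Hsd17b3* (SE 0.28, adjusted p = 2.79e-05, edgeR), among 67.0% of genes called (32.8% higher, 34.2% lower). Without the library as block the value for *Hsd17b1* was 3.81.

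Relative to Sertoli-like cells of the same library, Leydig cells had 3.89% and 6.02% of the level of *Hsd17b1* in control XY and 18.1% and 23.0% in dKO XY. For *Hsd17b3* they had 0.966% and 2.18%, and 2.72% and 2.51%. The median of the 11 Sertoli markers was 1.15% and 2.46% in control XY and 2.54% and 3.36% in dKO XY Leydig cells, near the values for *Hsd17b3* and below those for *Hsd17b1*. Single markers reached 18.6% and 22.9% in control XY and 40.5% and 83.4% in dKO XY, so *Hsd17b1* lay within the range of the Sertoli markers in each library. *Hsd17b1* was also unevenly spread. The 53 of 840 and 86 of 1182 control XY Leydig cells with at least 3 UMIs of it, a limit chosen after its values were seen, held 72.4% and 66.6% of its UMIs, with up to 23 and 30 UMIs in a cell. These cells were deeper, with a median of 53748 and 47203.5 UMIs against 40461 and 35487.5 UMIs in the other Leydig cells. In dKO XY gonads there were 19 of 814 and 15 of 853 such cells, which held 53.6% and 49.4%. Sertoli markers summed to 1633 and 1822 CPM in these control cells against 875 and 954 CPM in the other Leydig cells, and to 2139 and 1169 CPM against 998 and 979 CPM in dKO XY. Leydig markers summed to 7802 and 7907 CPM in these control cells against 10969.6 and 9614 CPM in the others, and to 5763 and 3037 CPM against 4996 and 2843 CPM in dKO XY. Of the 53, 86, 19 and 15 cells, 6, 17, 3 and 2 were among those with the highest doublet scores, as were 97, 150, 90 and 112 of the other Leydig cells, and 9, 18, 2 and 2 had at least 3 UMIs of the Sertoli genes *Cst9* and *Etd* together.

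Without the 24, 63, 54 and 101 Leydig cells that had 3 or more UMIs of *Cst9* and *Etd* together, an alternative added after the data were seen, the log2 fold change of *Hsd17b1* in Leydig cells between dKO XY and control XY was -1.61 (adjusted p = 0.00322, edgeR) and that of *Hsd17b3* was -0.22 (adjusted p = 0.793, edgeR). The Leydig markers, *Insl3* among them, were lower in dKO XY Leydig cells as well, at 5020 and 2848 CPM in sum against 10713 and 9432 CPM. Their part in the result for *Hsd17b1* was not tested.

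Interstitial cells were the most numerous type over all libraries together. They had 1.97 and 4.63 CPM of *Hsd17b1* in control XY, 0.920 and 0.320 CPM in dKO XY and 0.385 and 0.374 CPM in control XX. The log2 fold change between dKO XY and control XY was -2.38 (SE 0.52, adjusted p = 0.0377, edgeR), where 6.51% of the 16872 genes tested were called (3.89% higher, 2.61% lower). In dKO XY replicate 1, 6 of the 4702 cells held 53 of the 98 UMIs, and the others were at 0.424 CPM. The difference was called in 6 of 12 alternatives, and without control XY replicate 2 it was -1.64 (adjusted p = 0.156, edgeR). *Hsd17b3*, at 1.49 and 4.10 CPM against 2.81 and 2.52 CPM, did not pass the test (log2 fold change -0.07, adjusted p = 0.952, edgeR). In control XX interstitial cells *Hsd17b3* was at 0.0825 and 0.0599 CPM. Both genes were lower in control XX than in control XY interstitial cells, by -3.05 for *Hsd17b1* (SE 0.60, adjusted p = 0.00745, edgeR) and -5.26 for *Hsd17b3* (SE 0.68, adjusted p = 0.000993, edgeR), with 25% of genes called (12.2% higher, 12.8% lower). Without control XY replicate 2 these values were -2.31 and -4.34, and without control XX replicate 2 *Hsd17b1* was not called (-3.08, adjusted p = 0.0666, edgeR). The groups lay mostly in different clusters, since 1551 of 1560 and 2960 of 2963 control XX interstitial cells, but only 276 of 5228 and 251 of 6244 control XY ones, were in the same interstitial cluster. Within that cluster *Hsd17b1* was at 0.360 and 0.375 CPM in control XX against 1.47 and 2.72 CPM in control XY, and *Hsd17b3* was at 0.0832 and 0.0599 CPM against 2.00 and 1.97 CPM, from at most 25 UMIs in a library. Sertoli transcripts were found in interstitial cells too, with *Cst9* at 7.26 and 17.4 CPM in control XY, 23.2 and 25.1 CPM in dKO XY and 0.330 and 0.180 CPM in control XX, and *Amh* at 10.4 and 31.7 CPM, 6.16 and 6.94 CPM and 0.0275 and 0.0898 CPM. Their part in these differences was not tested.

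Aromatase mRNA was near the limit of detection. Of the 59 UMIs of *Cyp19a1*, found in 52 cells, 32 were in supporting cells of control XX gonads, 9 in supporting cells of XY gonads, 15 in Leydig cells and 3 in interstitial cells, and the 4923 cells of all other types summed had 0. Supporting cells of control XX gonads had 18 UMIs in 17 cells and 14 UMIs in 13 cells, or 0.212 and 0.472 CPM. Over both libraries that came to 0.279 CPM (exact Poisson 95% interval 0.191 to 0.394). Supporting cells of control XY gonads had 0 and 2 UMIs, and those of dKO XY gonads had 2 and 5. The intervals over both libraries, 0.0101 to 0.301 CPM for control XY and 0.0388 to 0.199 CPM for dKO XY, overlapped with that for control XX. Such an overlap is no test and does not show equal levels. *Cyp19a1* did not pass the filter on low counts in any comparison. Without the filter its log2 fold change in supporting cells between control XX and control XY was 1.87 (SE 1.10, adjusted p = 0.197, edgeR) and between dKO XY and control XY was 0.26 (adjusted p = 0.977, edgeR). Between dKO XY and control XX it was -1.61 (SE 0.78, unadjusted p = 0.039, adjusted p = 0.106, edgeR), and none of these differences was called.

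No difference in *Cyp19a1* between feminized and other supporting cells was called at this depth. Without the filter, the log2 fold change of feminized against dKO Sertoli-like cells was 4.85 (SE 2.13, unadjusted p = 0.0229, adjusted p = 0.0784, edgeR). That value rests on a class without a UMI and is no measure of size. Against control XY Sertoli-like cells it was 1.63 (adjusted p = 0.597, edgeR), and against control XX granulosa-like cells -0.49 (adjusted p = 0.830, edgeR). The 5 UMIs of feminized cells were all in dKO replicate 2, and 465 cells there gave 0.318 CPM, against none in the 489 cells of replicate 1. Sertoli-like cells of dKO XY gonads had no UMI in 1103 cells, which allows up to 0.0776 CPM (3 UMIs of their total). Leydig cells had 0.0541 and 0.0646 CPM of *Cyp19a1* in control XY against 0.0929 and 0.175 CPM in dKO XY, of which 3 UMIs in dKO replicate 1 came from 1 cell. The intervals over both libraries, 0.0195 to 0.14 and 0.0663 to 0.254 CPM, overlapped, which does not show equal levels.

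The genes around these steps came from 4 lists of 33 genes, of which 30 were found in the files. In Leydig cells, which supply the androstenedione, the upstream genes were called lower in dKO XY for 4 of 9 tested and higher for none, and 1 gene of all lists was called higher and 8 lower of 23 tested, where 5.66% of all genes were called higher and 3.22% lower. The median log2 fold change of the lists was -0.21, beside -0.01 over all genes tested. *Cyp17a1*, whose enzyme makes the androgen precursors, had 15324 and 14429 CPM in control XY against 10677 and 10237 CPM in dKO XY, a log2 fold change of -0.54 (adjusted p = 0.0071, edgeR). *Cyp11a1*, for the cut of the cholesterol side chain, fell by 0.63 and *Star*, which brings cholesterol into mitochondria, by 0.38. *Por*, the electron donor of CYP17A1, fell by 0.40. Leaving out either control XY library ended the call of *Star* and of *Por*, as did leaving out dKO XY replicate 1 for *Por*, with values from -0.45 to -0.31 for *Star* and from -0.46 to -0.31 for *Por*. With all variable genes used for clustering, *Star*, *Por* and *Cyp17a1* were not called. *Hsd3b1*, at 2634 and 2845 CPM against 2141 and 2853 CPM, did not pass the test (log2 fold change -0.16, adjusted p = 0.48, edgeR). *Akr1c14*, a 3α-hydroxysteroid dehydrogenase, rose from 0.541 and 0.538 CPM to 1.49 and 2.03 CPM. In interstitial cells it was higher in dKO XY as well, by 1.98 to 2.30 on the log2 scale with each library left out. Whether its UMIs in Leydig cells were free or cellular RNA was not tested. *Cyp11a1* overlaps with the annotated gene *Gm17322* on the same strand, and *Akr1c14* with *Gm18857*. Of the genes named below, *Hsd17b2* overlaps with *Gm45776* and *Esr2* with *Gm7862*, again on the same strand.

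In dKO Sertoli-like cells 2 genes of the lists were called higher and 1 lower of 25 tested, beside 8.42% and 5.56% of all genes, with a median log2 fold change of 0.07, beside 0.01 over all genes tested. *Fdxr*, which passes electrons to the mitochondrial P450 enzymes, fell by 0.82 (adjusted p = 0.00055, edgeR). *Hsd17b2*, whose enzyme oxidises testosterone and estradiol back, had no UMI in control XY Sertoli-like cells, which allows up to 0.498 and 0.248 CPM, and was at 1.08 and 1.20 CPM in dKO Sertoli-like cells. *Hsd17b13*, for a protein of lipid droplets, had no UMI in control XY and was at 0.989 and 0.745 CPM in dKO XY. Both were called, though not without control XY replicate 2, but their fitted fold changes rest on zeros and are no measure of size. *Hsd17b12*, another dehydrogenase of the family, was at 100.4 and 108 CPM against 121 and 100.5 CPM and did not pass the test.

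Between feminized and dKO Sertoli-like cells, 14 genes of the lists were called higher and 3 lower of 25 tested, beside 19.1% and 17.8% of all genes, with a median log2 fold change of 0.61, beside -0.0032 over all genes tested. *Esr1* and *Esr2*, for estrogen receptors, were higher by 3.03 and 2.85 on the log2 scale, and *Gper1*, for a membrane receptor of estrogen, by 3.03. The value for *Gper1* was 1.78, without a call, when dKO XY replicate 1 was left out, and 4.54 without dKO XY replicate 2. *Shbg*, for a protein that binds sex steroids, fell from 77.0 and 53.5 CPM to 14.5 and 12.9 CPM, a log2 fold change of -2.15 (adjusted p = 4.1e-06, edgeR). *Akr1c14* rose from 3.20 and 4.12 CPM to 17.9 and 19.2 CPM, close to the 20.3 and 24.5 CPM of control XX granulosa-like cells. *Cyp11a1* and *Star* were higher as well, by 1.99 and 1.56, and the 6 Leydig markers summed to 186 and 119 CPM in feminized and to 74.5 and 75.6 CPM in dKO Sertoli-like cells. Their part in that rise was not tested.

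**Figure D5:**
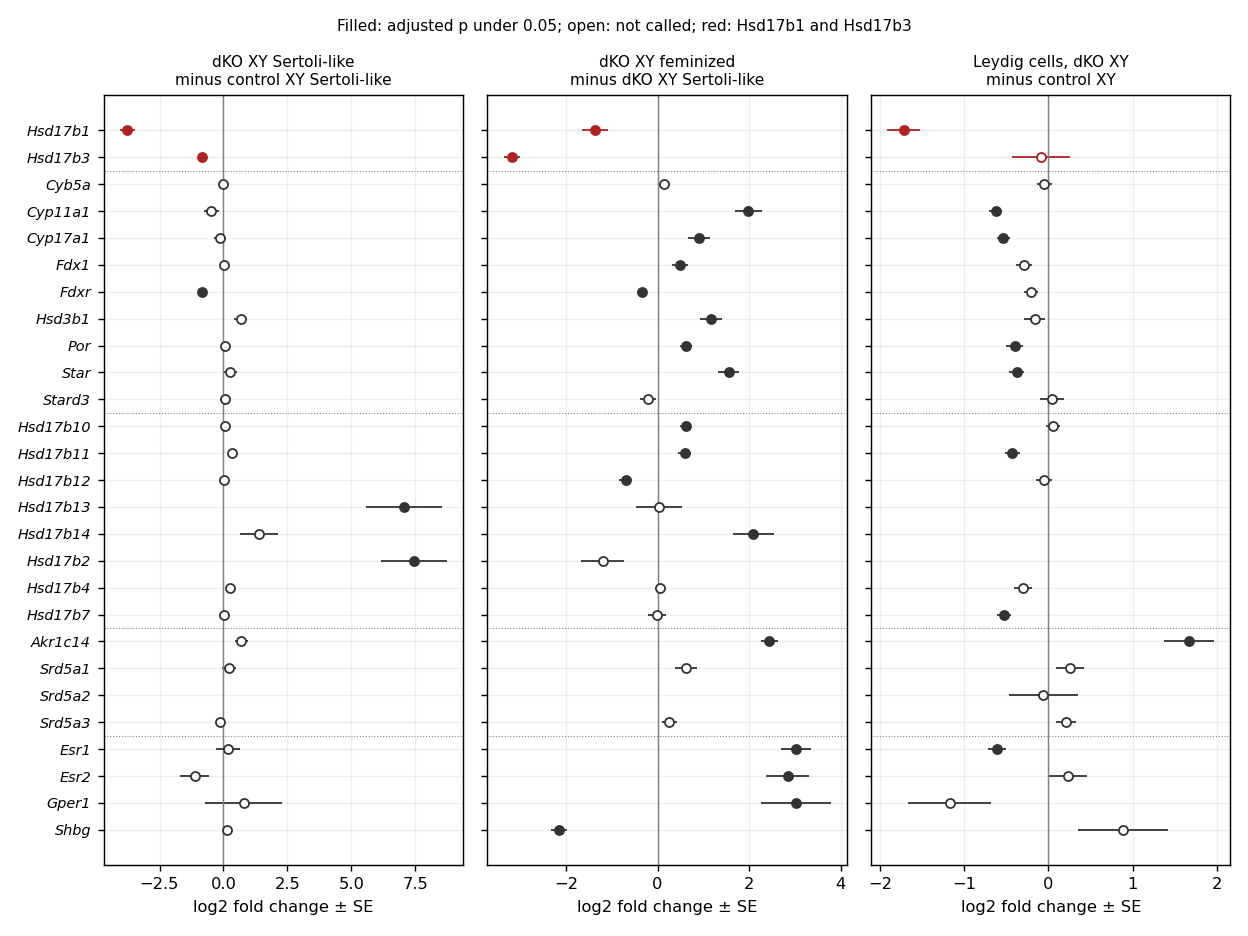
Log2 fold change ± SE of the members (red) and of genes of the 4 lists in 3 comparisons, with filled points for an adjusted p under 0.05 (edgeR) and open points for others. *Hsd17b1* and *Hsd17b3* were both lower in dKO XY Sertoli-like cells, by -3.76 and -0.83, and in feminized cells, by -1.36 and -3.18, and only *Hsd17b1* of the pair was called in Leydig cells. *Hsd17b2* and *Hsd17b13* had no UMI in control XY Sertoli-like cells, so their points in the left panel are no measure of size.

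In Sertoli-like cells against Leydig cells of the same library, 16 genes of the lists were lower and 3 higher of 21 tested, beside 34.2% and 32.8% of all genes. In the 4 XY libraries, Sertoli-like cells held 73.3% to 77.5% of the UMIs of *Hsd17b3* and 47.6% to 65.3% of those of *Hsd17b1*, and Leydig cells held 3.21% to 6.14% and 15.1% to 25% of them. These shares depend on the cells recovered, 190 and 407 Sertoli-like and 840 and 1182 Leydig cells in control XY. In dKO XY there were 678 and 425 Sertoli-like and 814 and 853 Leydig cells. *Cyp17a1* was lower in Sertoli-like cells by a log2 fold change of -8.23, *Cyp11a1* by -7.91, *Star* by -7.24 and *Hsd3b1* by -6.59. *Hsd17b7*, of cholesterol synthesis and estrone reduction, was lower by -3.90. For *Hsd17b12* the value ran from -1.03 to -0.96 with each library left out, so it too was higher in Leydig cells. The 3 higher ones were *Shbg* (6.12), *Akr1c14* (1.20, not called without the library as block) and *Stard3* (0.91), a cholesterol transporter of endosomes. The traces of *Cyp17a1* in control XY Sertoli-like cells, 43.6 and 59.4 CPM, were beside 50.5 and 53.2 CPM in interstitial cells.

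The genes whose levels followed each member most closely over the 45 sums of cell type and library were different for the 2 dehydrogenases. For *Hsd17b1*, among 11185 genes, these were *Tubb3*, *Bcan*, *Serpina5*, *Amh* and *Sel1l3*, with Pearson's r between 0.919 and 0.870 of log2(CPM + 1). For *Hsd17b3* they were *Etd*, *Tesc*, *Bricd5*, *Dusp15* and *Cst9*, with r between 0.954 and 0.931. *Amh* is itself a targeted gene in dKO XY, and sums of a library share its depth. *Serpina5*, for a protease inhibitor, had 67.0 and 64.3 CPM in Sertoli-like cells of control XY and 8.10 and 5.33 CPM in those of dKO XY. *Cst9* was at 1364 and 1189 CPM against 2571 and 2056 CPM. Both were picked for their likeness to a member over sums that include these libraries. A resemblance of *Serpina5* to *Hsd17b1* is therefore no separate support.

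The neighbours of *Hsd17b1* on chromosome 11 were looked at after its values were seen. *Naglu*, which ends 738 bases before *Hsd17b1* on the same strand, had a log2 fold change of -0.70 in supporting cells between dKO XY and control XY (SE 0.13, adjusted p = 0.00525, edgeR). *Coasy*, 2037 bases after it on the same strand, did not pass the test (-0.12, SE 0.12, adjusted p = 0.587, edgeR). The change of *Hsd17b1*, -3.97, was larger than that of either neighbour.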

How the data were processed

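For each library the authors deposited raw counts of UMIs per gene symbol and cell barcode. Per their methods these came from 10x Genomics libraries aligned to mm10 with Cell Ranger and corrected for barcode swapping. The filter took barcodes with over 2500 and under 9000 genes, under 25% mitochondrial and under 20% *Hbb* UMIs, which left 39350 of 68064. They were clustered on 3000 variable genes without the members and pathway genes, with 20 principal components at resolution 0.21, and supporting cells again at 0.25, without cells high in *Sycp3* or *Tcf21*. The rule that set aside germ cell subclusters was made after the data were seen. Sums of UMIs over each type in each library, of at least 10 cells, went into edgeR's quasi-likelihood test with filterByExpr and TMM, called at a Benjamini-Hochberg adjusted p under 0.05. Sertoli-like and Leydig cells were compared with the library as block. The 2 libraries of a group are labelled biological replicates. Scrublet's automatic threshold marked 0 to 71 cells per library, so doublets stayed in and leaving out the highest 8% of scores was an alternative. Intervals cover counting error only, and a count of 0 allows up to 3 UMIs. The rule for named genes took the members, the pathway lists and, for each dehydrogenase, the 5 genes most like it. Beside these, markers and leading genes of clusters are named where classes are described, and the neighbours of *Hsd17b1* were chosen after its values were seen. The members and lists were chosen with earlier results of these data known. The tests were tested on simulated data. A gene of the lists is counted in them but not reported here by name.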

Additional observations from a re-analysis of the deposited data

How the results depend on the processing

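In supporting cells and their subclusters *Hsd17b1* and *Hsd17b3*, and in Leydig cells *Hsd17b1*, kept direction and call in each alternative run (DESeq2, no filter on low counts, the replicate block, only the groups compared, other clusterings, cells with high doublet scores or each library left out). *Hsd17b3* in Leydig cells between dKO XY and control XY was called in none and ran from -0.55 to 0.63. In interstitial cells *Hsd17b1* between dKO XY and control XY was not called with only the 2 groups compared (-2.37, adjusted p = 0.0617, edgeR) or with the replicate block (-2.35, adjusted p = 0.0788, edgeR), and ran from -3.38 to -1.64 with each library left out, without a call when either control XX library, control XY replicate 2 or dKO XY replicate 2 was left out. Between control XX and control XY it ran from -3.53 to -2.31 and was not called without control XX replicate 2 (-3.08, adjusted p = 0.0666, edgeR). *Cyp11a1* and *Cyp17a1* in interstitial cells of dKO XY reversed to 0.29 and 0.48 when all variable genes were used for clustering.

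The number of genes called in Leydig cells, 1300, was 716 with all variable genes, 2433 without the filter and 2442 with the replicate block. In interstitial cells of dKO XY, 1098 genes became 1751 without the filter and 669 with the replicate block. With each library left out, the counts ran from 293 to 1240 there, from 2584 to 4389 in control XX interstitial cells, from 1090 to 2723 in dKO XY supporting cells, from 957 to 2010 in Sertoli-like cells, from 2976 to 4590 between feminized and granulosa-like cells and from 3403 to 5478 between feminized and dKO Sertoli-like cells. The lowest were without control XY replicate 1 in the first of these, control XY replicate 2 in the next 3, control XX replicate 2 in the fifth and dKO XY replicate 1 in the last. Genes of the pathway lists called fell from 9 to 5 in Leydig cells with all variable genes, from 3 to 1 in Sertoli-like cells without control XY replicate 2 and from 17 to 9 between feminized and dKO Sertoli-like cells without dKO XY replicate 1. Deviations of same-numbered libraries from their group means had correlations from -0.20 to 0.12. With 2 libraries per group these cannot decide whether the numbers pair the samples.

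Without the cells of highest doublet score, *Hsd17b3* was at 3.24 CPM in dKO XY Leydig cells, 280.1 CPM in control XY Sertoli-like cells and 247 CPM in all control XY supporting cells. Thinned to 2500 UMIs, the share of cells with *Hsd17b1* was 51.2% in control XY Sertoli-like, 5.44% in dKO XY Sertoli-like, 1.98% in feminized and 0.0894% in control XX granulosa-like cells. For *Hsd17b3* it was 45.4%, 35.4% and 3.23% in the first 3 of these classes, and for both genes 25%, 2.40%, 0.312% and 0%. The cause was not tested, other than the fewer UMIs or genes that thinning and filtering leave. Depth limits *Cyp19a1* most, with 59 UMIs.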
